A study of Mus musculus with 8 samples.

Results

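Expression of 10 genes of lens fibre cell differentiation other than crystallins was followed in 8 mouse lens capsule libraries. They were chosen by their known roles, with earlier results of these libraries in view, as the rows of the deposited gene count table whose identifiers carry the symbols Bfsp1, Bfsp2, Lim2, Lgsn, Birc7, Dnase2b, Hspb1, Prox1, Hsf4 and Tdrd7. All 10 were found among the 54532 genes of the table, and all 10 passed the filter on low counts. The first 7 are called late maturation genes here and the last 3 fibre regulators. ASC eyes were wild-type C57BL/6 eyes whose anterior lens capsule had been incised with a 26-gauge needle passed through the cornea. Sham eyes came from mice of the same strain and genotype and had the corneal incision alone, with the lens capsule left closed. All mice were 6 to 8 weeks old, capsules were taken 7 days after surgery, and each group had 4 libraries described as biological replicates. The question behind the comparison of ASC with sham is how gene expression changes in this injury model of fibrotic cataract.

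The lens grows throughout life as epithelial cells at its equator leave the cell cycle, elongate and become fibre cells. Young fibres fill with crystallins and build a membrane skeleton of beaded filaments, and older ones then break down their nuclei and other organelles. The transcription factor Prox1 acts early, in cell cycle exit and elongation. Hsf4, a heat shock factor that is active in lens without heat stress, is needed in mice for normal fibre maturation and for expression of Hspb1. Tdrd7, a Tudor domain protein of cytoplasmic RNA granules, binds fibre mRNAs, and its loss causes cataract in mice. Bfsp1 and Bfsp2 form the beaded filament, Lim2 is a fibre membrane protein, and Lgsn (lengsin) is a late fibre protein related to glutamine synthetase. Birc7 (livin) is an inhibitor of apoptosis proteins family member, Dnase2b is the acid nuclease that digests the DNA of fibre nuclei, and Hspb1 is a small heat shock chaperone.

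Because Hsf4 binds heat shock elements, repeats of GAA in alternating orientation, the bases before the transcription start were read for the other members. RefSeq promoters (GRCm38.p6) were matched for 9 of the 10 genes, in 12 windows of 250 bases, and Hsf4 had none. The letters searched were GAANNTTC and TTCNNGAA, each its own reverse complement, and on both strands the longer heat shock element that joins these 2 forms with a shared triplet. GAANNTTC was present in 6.69% and TTCNNGAA in 7.16% of all 32817 promoter windows. Any of the forms was present in 12.8% of them and in 3 of the 12 windows of the members. The windows of Hspb1, Dnase2b and Birc7 are printed 5′ to 3′ because these genes had some of the widest differences between ASC and sham, and matches are in capitals.
Hspb1: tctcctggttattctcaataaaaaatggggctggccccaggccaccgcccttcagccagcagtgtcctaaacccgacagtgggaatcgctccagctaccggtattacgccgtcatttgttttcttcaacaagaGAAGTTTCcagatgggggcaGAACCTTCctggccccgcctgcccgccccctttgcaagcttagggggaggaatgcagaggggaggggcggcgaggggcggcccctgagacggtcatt
Dnase2b: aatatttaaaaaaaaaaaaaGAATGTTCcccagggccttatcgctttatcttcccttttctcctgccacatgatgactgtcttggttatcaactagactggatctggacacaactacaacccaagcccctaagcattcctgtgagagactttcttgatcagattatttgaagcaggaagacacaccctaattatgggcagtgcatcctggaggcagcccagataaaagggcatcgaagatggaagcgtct
Birc7: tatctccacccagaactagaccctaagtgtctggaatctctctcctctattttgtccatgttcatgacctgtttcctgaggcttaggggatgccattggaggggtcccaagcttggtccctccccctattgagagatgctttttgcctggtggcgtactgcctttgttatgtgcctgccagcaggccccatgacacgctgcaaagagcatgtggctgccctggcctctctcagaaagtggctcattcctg
The Hspb1 window (chr5:135887669-135887918, plus strand) held 2 GAANNTTC matches, which ended 109 and 89 bases before the start. The Dnase2b window (chr3:146615599-146615848, minus strand) held 1, which ended 222 bases before the start. The Birc7 window (chr2:180928773-180929022, plus strand) held 0 matches, and the third gene with a match was Tdrd7, in 1 of its 3 windows. The longer element, which 0.466% of all windows hold, was found in 0 of the 12. A match is a run of letters and not a measured binding site.

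Libraries held 14420494 to 21141582 counts, and the members had between 64 counts (Dnase2b in sham 2) and 85669 counts (Lgsn in ASC 1) per library. ASC 2 stood apart from the other 3 ASC libraries in these genes. It was the lowest ASC library for 9 of the 10, while ASC 1 was the highest for 9. Of 167 genes called higher without ASC 2 in edgeR's test, 157 were also among the genes tested with all libraries, as were all 61 called lower. Among these, ASC 2 itself lay above every sham library for 115 of 157 higher genes and below every sham library for 58 of 61 lower genes. Results for the members are therefore given with and without it. Since ASC 2 was singled out by the levels of these same genes, leaving it out favours a higher fold change for most of them. The fits without it are a description and give no independent support. Markers of other cell types also differed between libraries, and their part in the results was not tested. The summed level of 5 red cell markers was 73.9 to 370 CPM in ASC and 40.1 to 62.8 CPM in sham, without overlap. Of 4 tested corneal epithelial markers Krt5 and Krt12 were higher in ASC, at means of 10.04 and 4.27 CPM against 0.841 and 0.435 CPM in sham (adjusted p = 0.0387 and 0.0395, edgeR's quasi-likelihood test). Summed corneal (351 to 951 CPM in ASC, 388 to 604 CPM in sham), pigment cell (114 to 574 and 24.9 to 196 CPM), retinal (1949 to 3700 and 988 to 4149 CPM) and leukocyte levels (13.1 to 41.9 and 7.72 to 24.5 CPM) overlapped. Krt5 and Krt12 made up a small part of the corneal sum, so its overlap does not describe them. No marker of these lists was at 0 in all 8 libraries. Markers of the lens epithelium summed to 2412 to 2953 CPM in ASC and 2666 to 3031 CPM in sham.

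All 10 genes had a positive log2 fold change of ASC over sham, for Prox1 as little as 0.0002 under library totals alone. In all, 0 of the 10 passed edgeR's quasi-likelihood test at an adjusted p of 0.05 with all 8 libraries, where 1.02% of the 15857 tested genes passed and 0.631% did so as higher in ASC. The late maturation genes had a median log2 fold change of 2.95 and the regulators one of 0.43, against 0.008 over all tested genes. An unadjusted p under 0.05 was reached by 5 of the 7 late genes and 1 of the 3 regulators, against 14.7% of all tested genes in either direction and 6.82% as higher. DESeq2 called Bfsp1, Lgsn, Birc7, Dnase2b and Hspb1 as higher in ASC, against 1.82% of the genes it tested. Limma-voom called Hspb1 (adjusted p = 0.0493), against 0.586% of genes. Without ASC 2, edgeR called Bfsp1, Lgsn, Birc7 and Hspb1 as higher, against 1.03% of genes. That library was left out because of its levels in these same genes. The difference between the late genes and the regulators was not tested, since the members were chosen with results of these libraries known. In bulk tissue, a change in the number of cells of a type and a change in RNA per cell cannot be told apart.

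**Figure D1:**
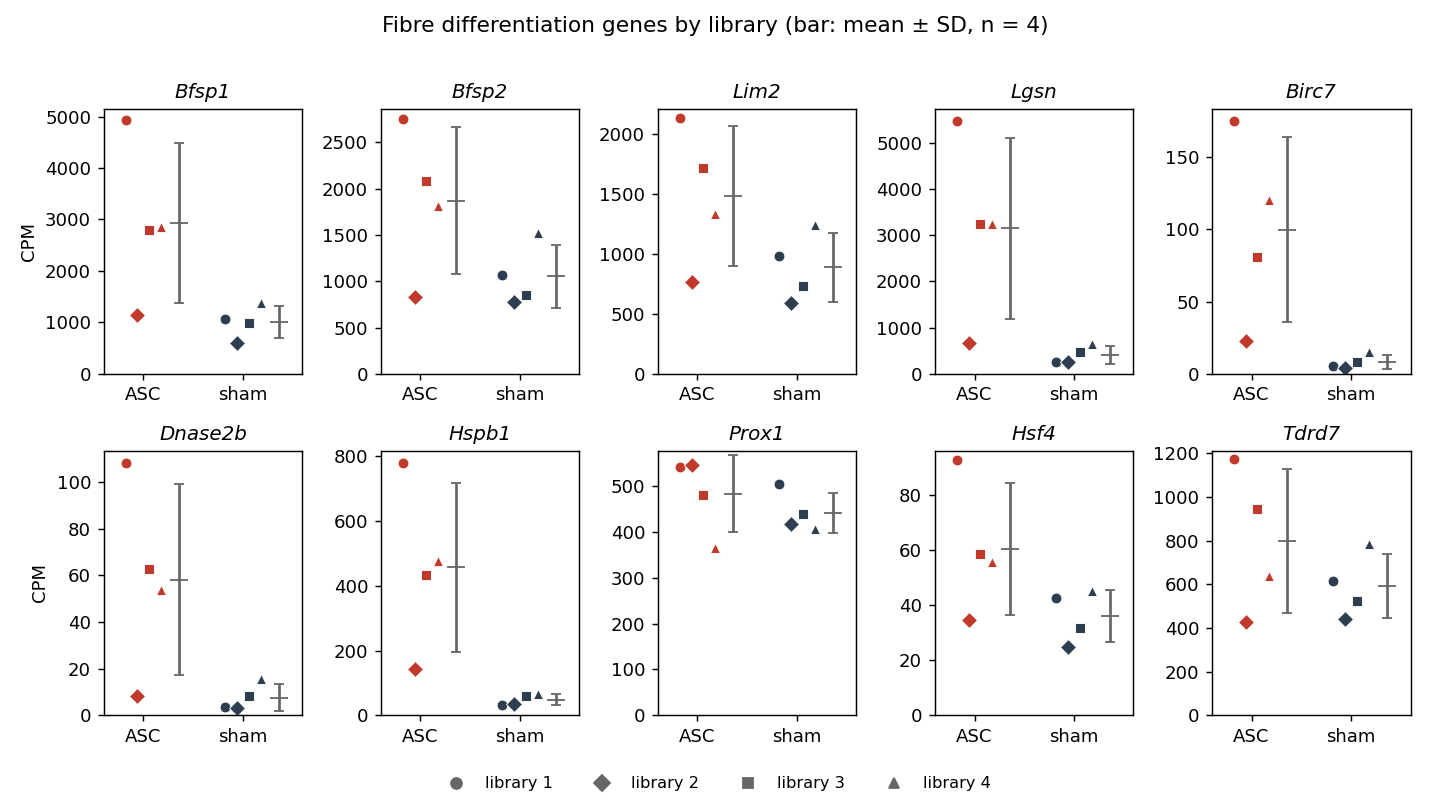
Level of each gene in CPM (vertical axes, each from 0) in the 4 ASC libraries (red) and the 4 sham libraries (dark), with marker shapes for the library number and bars for mean ± SD. ASC 1 is the highest and ASC 2 the lowest ASC library in every panel except that of Prox1.

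Lgsn had the highest mean CPM in ASC of the 10 genes. It had 5463 CPM (read counts relative to the TMM-scaled library size) in ASC 1, 668 in ASC 2, 3231 in ASC 3 and 3243 in ASC 4, against 253 in sham 1, 253 in sham 2, 470 in sham 3 and 652 in sham 4. All ASC libraries lay above all sham libraries, but ASC 2 did so by a small margin over sham 4. The means were 3151 ± 1960 CPM in ASC and 407 ± 193 CPM in sham (SD, n = 4 each), a log2 fold change of 2.95 with a standard error (SE) of 0.68 (edgeR adjusted p = 0.118, DESeq2 adjusted p = 3.6e-05). Without ASC 2 the log2 fold change was 3.29 (edgeR adjusted p = 0.0101).

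Hspb1 differed by a similar factor from a lower level. Its values were 779, 143, 432 and 475 CPM in ASC 1 to ASC 4, against 33.0, 35.1, 58.8 and 66.8 CPM in sham 1 to sham 4. The groups did not overlap, and even ASC 2 was 2.96 times the sham mean. The log2 fold change was 3.24 (SE 0.56, edgeR adjusted p = 0.0602), and 3.54 without ASC 2 (edgeR adjusted p = 0.00458). It was the one member called by both DESeq2 (adjusted p = 2.2e-07) and limma-voom.

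Birc7 had the highest fold change of the 10 genes. It was measured at 174, 22.9, 80.8 and 120 CPM in ASC 1 to ASC 4, against 5.66, 4.34, 8.09 and 14.8 CPM in sham 1 to sham 4. Again the groups did not overlap. It had a log2 fold change of 3.63 (SE 0.73, edgeR adjusted p = 0.0856, DESeq2 adjusted p = 1.2e-05) and 3.95 without ASC 2 (edgeR adjusted p = 0.032). Lgsn, Birc7 and Hspb1 were the 3 members whose groups did not overlap, where 3.39% of all tested genes had every ASC library above every sham library.

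Dnase2b, the nuclease of fibre denucleation, was the least abundant late gene. Its level was 108, 8.25, 62.9 and 53.6 CPM in ASC 1 to ASC 4, against 3.42, 2.99, 8.14 and 15.6 CPM in sham 1 to sham 4. ASC 2 lay within the sham range here, below sham 4. The log2 fold change was 2.99 (SE 0.90, edgeR adjusted p = 0.216, DESeq2 adjusted p = 0.0181). Without ASC 2 it was 3.35, and it still did not pass edgeR's test (adjusted p = 0.114). Within each group this gene had the widest spread of the 10, with an SD of log2 CPM of 1.61 in ASC and 1.10 in sham, against medians over all tested genes of 0.219 and 0.215.

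The beaded filament genes had fold changes of unlike size. Bfsp1 had 4928, 1139, 2797 and 2852 CPM in ASC 1 to ASC 4, against 1058, 608, 993 and 1378 CPM in sham 1 to sham 4, and ASC 2 lay below sham 4. Its log2 fold change was 1.54 (SE 0.44, edgeR adjusted p = 0.172, DESeq2 adjusted p = 0.0251), and 1.80 without ASC 2 (edgeR adjusted p = 0.0199). Bfsp2 had 2755, 832, 2080 and 1814 CPM in ASC 1 to ASC 4, against 1066, 772, 846 and 1524 CPM in sham 1 to sham 4. For Bfsp2 ASC 2 lay below 3 of the 4 sham libraries. The log2 fold change was 0.83 (SE 0.36, 95% confidence interval -0.003 to 1.66), which passed no test (edgeR adjusted p = 0.34, and adjusted p = 0.0644 without ASC 2).

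The membrane gene Lim2 resembled Bfsp2. It was at 2127, 761, 1711 and 1330 CPM in ASC 1 to ASC 4, against 984, 589, 731 and 1238 CPM in sham 1 to sham 4. ASC 2 lay below 2 sham libraries. A log2 fold change of 0.74 was estimated (SE 0.34, edgeR adjusted p = 0.355), and 0.96 without ASC 2 (edgeR adjusted p = 0.129).

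**Figure D2:**
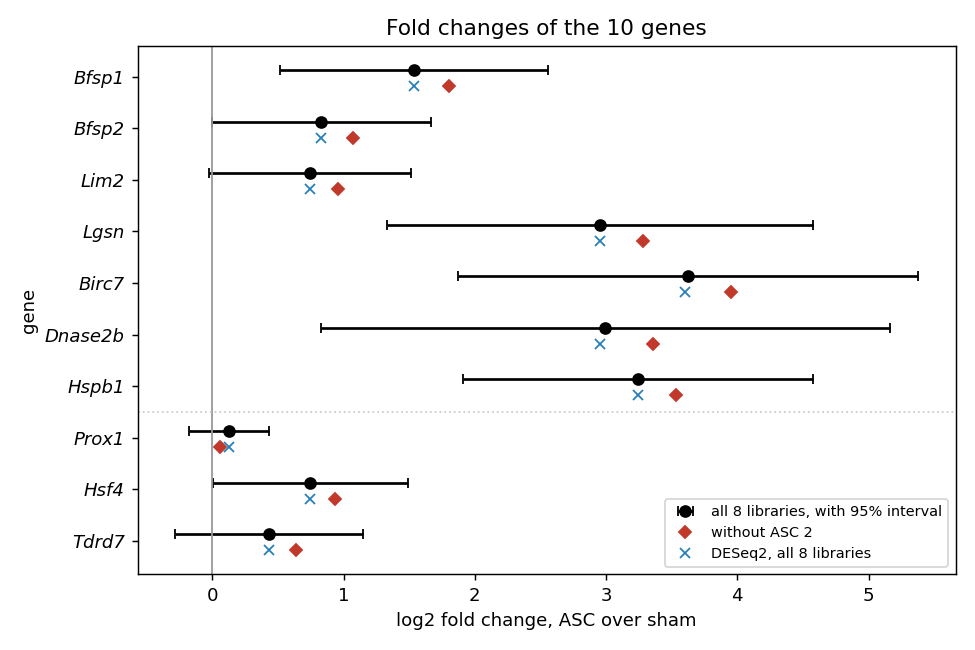
Log2 fold change of ASC over sham (horizontal axis) for the 7 late maturation genes above the dotted line and the 3 regulators below it, from edgeR with 95% confidence intervals (black), from edgeR without ASC 2 (red) and from DESeq2 (blue). Lgsn, Birc7, Dnase2b and Hspb1 lie at 2.95 to 3.63, Bfsp1 at 1.54, and Bfsp2, Lim2 and the regulators at 0.83 or less.

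The 3 regulators had log2 fold changes of 0.13 to 0.75, and that of Hsf4 was about that of Lim2. Prox1 had 542, 544, 479 and 365 CPM in ASC 1 to ASC 4, against 504, 417, 439 and 407 CPM in sham 1 to sham 4. ASC 1 and ASC 2 lay above all sham libraries and ASC 4 below all of them, and ASC 2 was here the highest library. Its log2 fold change was 0.13 with an interval of -0.17 to 0.43 (SE 0.14, edgeR adjusted p = 0.73). Without ASC 2 it was 0.06 (edgeR adjusted p = 0.919). Exons of the antisense gene Prox1os overlap those of Prox1 and had up to 1739 counts in a library. The strand setting of the counting was not given in the sources used here. It is therefore not known whether reads of Prox1 and Prox1os were told apart where these exons overlap. The length of the overlap was not measured. Prox1 itself had 5405 to 10761 counts per library. Antisense genes also overlap Bfsp2 (5830418P13Rik, at most 300 counts) and Lgsn (4931428L18Rik, at most 71 counts).

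Hsf4 was at 92.9, 34.8, 58.6 and 55.8 CPM in ASC 1 to ASC 4, against 42.6, 24.8, 31.8 and 45.1 CPM in sham 1 to sham 4. Each ASC library but ASC 2 exceeded all sham libraries. The log2 fold change was 0.75 (SE 0.32, interval 0.006 to 1.49, edgeR adjusted p = 0.337, DESeq2 adjusted p = 0.0913), and 0.94 without ASC 2 (edgeR adjusted p = 0.179). Tdrd7 had 1174, 427, 946 and 639 CPM in ASC 1 to ASC 4, against 614, 442, 525 and 785 CPM in sham 1 to sham 4. For Tdrd7 ASC 2 was the lowest of all 8 libraries and ASC 4 lay below sham 4. Its log2 fold change was 0.43 (SE 0.31, interval -0.29 to 1.15, edgeR adjusted p = 0.579), and 0.63 without ASC 2 (edgeR adjusted p = 0.276).

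On a scale of CPM per kilobase of exon, which allows levels of different genes to be compared, the order of the members differed between the groups. In ASC Lgsn came first at 1627 ± 1012 CPM per kb, followed by Bfsp1 (1226 ± 649), Bfsp2 (1101 ± 470), Lim2 (678 ± 266), Hspb1 (444 ± 253) and Tdrd7 (201 ± 83.3). Birc7 (65.0 ± 41.8), Prox1 (57.5 ± 10.02), Hsf4 (34.5 ± 13.7) and Dnase2b (20.9 ± 14.7) had the lowest levels, and the ranges of all neighbours in this order overlapped. In sham Bfsp2 came first (620 ± 199 CPM per kb), followed by Bfsp1 (422 ± 132), Lim2 (405 ± 131), Lgsn (210 ± 99.5) and Tdrd7 (149 ± 37.1). Prox1 (52.6 ± 5.18), Hspb1 (47.0 ± 16.4), Hsf4 (20.6 ± 5.40), Birc7 (5.37 ± 3.04) and Dnase2b (2.70 ± 2.09) were lower. Neighbours in the sham order whose ranges did not overlap were Tdrd7 and Prox1, Hspb1 and Hsf4, and Hsf4 and Birc7. The mean of Lgsn thus stood above that of Bfsp2 in ASC and below it in sham, and the means of Hspb1 and Birc7 stood above that of Prox1 in ASC and below it in sham. Single libraries did not always keep this order. Lgsn lay below Bfsp2 in ASC 2, and Birc7 lay below Prox1 in ASC 2 and ASC 3. Hspb1 lay above Prox1 in sham 3 and sham 4.

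Ratios within a library do not depend on how libraries are scaled, and they are given here as a description. Bfsp2 was taken as the denominator after the values were seen, as an abundant fibre gene with a modest fold change. Members with a larger fold change than Bfsp2 are therefore placed higher by the ratio. Bfsp2 also varied with the other late genes (r of 0.874 to 0.979 once group means were removed), so ratios can spread less than levels do. The ratios restate the fold changes and give no independent support. Relative to Bfsp2, every ASC library exceeded every sham library for Lgsn, Birc7, Hspb1 and Bfsp1, where 0.517% of all tested genes did so. The mean log2 ratio to Bfsp2 was higher in ASC than in sham by 2.66 for Birc7, by 2.32 for Hspb1, by 1.98 for Lgsn and by 0.66 for Bfsp1. Hspb1 gives the clearest example, with log2 ratios of -2.54 to -1.82 in ASC, ASC 2 included, against -5.01 to -3.85 in sham. For Dnase2b the difference was 2.04, but ASC 2 and 2 sham libraries lay close together (-6.66 in ASC 2, -6.70 in sham 3 and -6.61 in sham 4). Lim2 and Hsf4 kept their ratio to Bfsp2 within the spread between libraries, with differences of -0.05 and -0.06. Prox1 (-0.64) also overlapped. Tdrd7 was lower relative to Bfsp2 in every ASC library (-1.50 to -0.961) than in any sham library (-0.958 to -0.688), with a mean difference of -0.40, and ASC 2 and sham 4 were almost level. In the same direction 3.34% of all tested genes did not overlap.

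**Figure D3:**
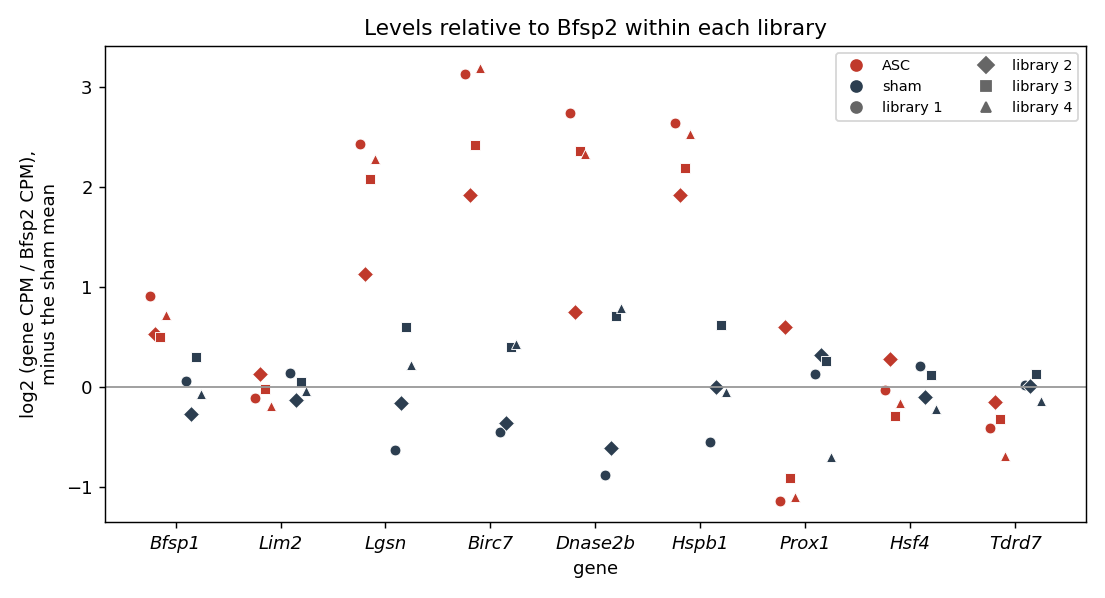
Log2 ratio of each gene's CPM to that of Bfsp2 in the same library, shifted so that the sham mean is 0 (vertical axis), for ASC libraries (red) and sham libraries (dark), with shapes for the library number. Points of Lgsn, Birc7, Hspb1 and Bfsp1 separate by group with ASC 2 included, those of Lim2 and Hsf4 mix, and those of Tdrd7 lie lower in ASC.

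Set against the regulators in the same way, all 21 pairs of a late gene and a regulator had a higher mean log2 ratio in ASC. In 12 of the 21 every ASC library exceeded every sham library. With Tdrd7 as the denominator this held for 6 of the 7 late genes, Dnase2b being the exception, where 0.763% of all tested genes did so. With Hsf4 it held for 4 of the 7 (Bfsp1, Lgsn, Birc7 and Hspb1, against 0.523% of genes), and the differences of Bfsp2 (0.06) and Lim2 (0.002) to Hsf4 were near 0. With Prox1 it held for Birc7 and Hspb1 (1.19% of genes), since ASC 2 combined low late gene levels with a high Prox1 level. The pairs share genes and libraries, so these counts are a description and carry no test.

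Gamma crystallins are the crystallin family most tied to fibre cells, and their summed level was set beside that of the members. The 8 gamma crystallins summed to 76019, 23935, 51730 and 53024 CPM in ASC 1 to ASC 4, against 27078, 18267, 20904 and 40703 CPM in sham 1 to sham 4. ASC 2 was low and sham 4 high, as for most members. Once group means were removed, the mean log2 CPM of the late genes had a Pearson r of 0.946 with the log2 gamma crystallin sum over the 8 libraries, and that of the regulators one of 0.878. For the regulators this was not particular to gamma crystallins. Their r was 0.817 with the alpha and beta crystallin sum, 0.862 with the crystallin percentage of counts, -0.865 with the TMM factor and -0.801 with leukocyte markers. For the late genes these values were 0.534, 0.608, -0.698 and -0.441. CPM is scaled by the TMM factor, so a negative r with that factor is partly built in for both sets. Relative to the gamma crystallin sum, Lgsn, Birc7, Hspb1 and Bfsp1 were higher in every ASC library than in any sham library (0.454% of all tested genes), by 1.84, 2.53, 2.18 and 0.53 on the log2 scale. The sum is weighted to its most abundant genes and does not stand for each gamma crystallin. Cryga and Cryge, at means of 39.5 and 478 CPM in ASC, had log2 fold changes of 3.65 and 3.46. Over the 8 gamma crystallins the median log2 fold change was 2.14 and the lowest 0.0765. Bfsp2, Lim2 and Hsf4 differed by -0.14, -0.19 and -0.19, with overlap. Tdrd7 differed by -0.53 without overlap, lower in ASC, as were 4.87% of all tested genes.

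**Figure D4:**
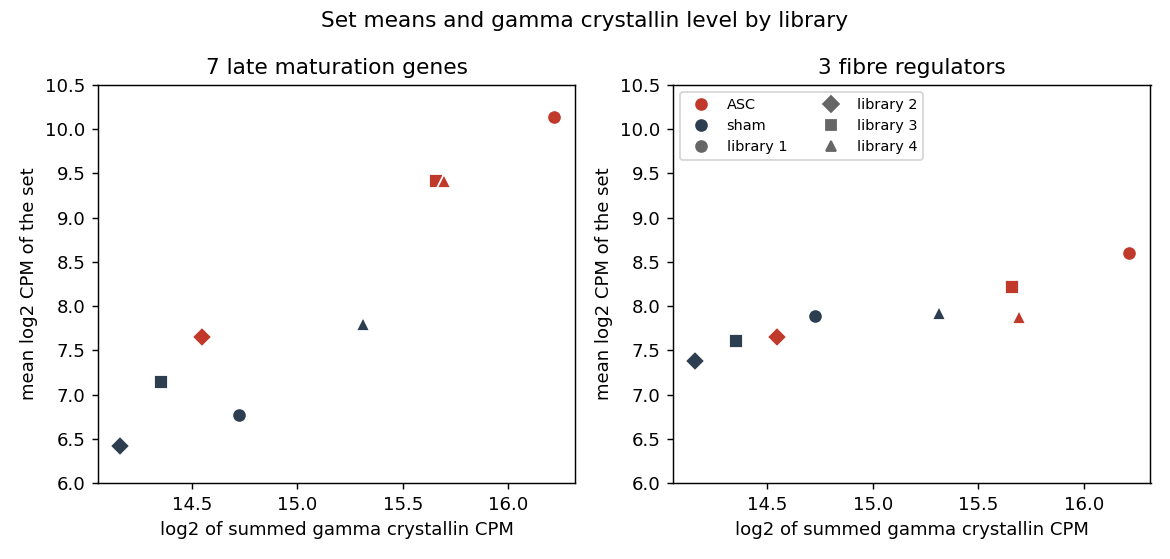
Mean log2 CPM of the 7 late maturation genes (left) and of the 3 regulators (right) against the log2 of the summed gamma crystallin CPM, 1 point per library, ASC red and sham dark. The late set spans 6.42 to 10.1 and the regulators 7.38 to 8.61, and ASC 2 lies among the sham libraries on the horizontal axis.

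Members varied together from library to library. After removal of the group means, all 21 pairs of late genes correlated positively over the 8 libraries (r of 0.807 to 0.993, median 0.925), with Lgsn and Hspb1 highest. Hsf4 and Tdrd7 followed the late genes (r = 0.966 for Hsf4 with Bfsp1, r = 0.979 for Tdrd7 with Lim2) and each other (0.938). Prox1 did not, with r between -0.366 and 0.092 to all other members. These values are descriptions over 8 libraries that share scaling, and ASC 1 and ASC 2 carry most of the range. Among 9535 other genes whose average log2 CPM was 3 or more, those most like the mean of the late genes were Hmox1 (r = 0.989), Gm6166, Ftl1, Cog2 and Utp20 (r = 0.979). Hmox1 encodes heme oxygenase and Ftl1 the ferritin light chain. Hmox1 had 158 CPM in ASC and 22.9 CPM in sham on average (log2 fold change 2.79, SE 0.81, edgeR adjusted p = 0.203), and Utp20 had a negative log2 fold change of -0.22. Genes most like the mean of the regulators were Klhdc8b (r = 0.998), Dbnl, Pdlim1, Larp1b and Rilpl1 (r = 0.976).

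Other genes of the same programme were read from lists. Over all tested genes, 1.02% passed in edgeR and 14.7% had an unadjusted p below 0.05 there. DESeq2 called 571 of 18639 genes and limma-voom 173 of 15857, in either direction. Of 14 further regulators of fibre differentiation 0 passed in edgeR (2 had an unadjusted p below 0.05), 0 in limma-voom and 1 in DESeq2, Gata3, as lower. Their median log2 fold change was -0.07. The RNA-binding protein gene Celf1 had 471 ± 92.3 CPM in ASC and 545 ± 34.2 CPM in sham, and the fibre transcription factor gene Maf 407 ± 66.9 and 455 ± 38.5 CPM. Gata3, named for its DESeq2 call, averaged 7.06 CPM in ASC and 11.8 CPM in sham.

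Cytoskeletal and membrane partners of the fibre cell were near 0 as a list. Of 19 genes 0 passed in edgeR (1 had an unadjusted p below 0.05), 0 in limma-voom and 1 in DESeq2, Epha2, as higher. Their median log2 fold change was 0.02, within a range of -0.287 to 1.07. Vim, the intermediate filament protein that fibres share with the epithelium, was at 3458 ± 428 CPM in ASC and 3100 ± 351 CPM in sham. Mip, the fibre water channel aquaporin 0, was at 2867 ± 981 and 2725 ± 712 CPM, a log2 fold change of 0.07 whose sign turned when libraries were scaled by their totals alone. Chosen after their values were seen, the fibre connexin gene Gja3 (log2 fold change 0.04) and the lens galectin-related gene Grifin (0.03) also lay near 0. The klotho-related fibre gene Lctl had 820 CPM in ASC and 391.6 CPM in sham (log2 fold change 1.07, SE 0.59, edgeR adjusted p = 0.462).

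Among 18 genes of organelle clearance and of the apoptosis inhibitor family of Birc7, 0 passed in edgeR (4 had an unadjusted p below 0.05), 0 in limma-voom and 2 in DESeq2, Birc3 as higher and Casp9 as lower. The list had a median log2 fold change of 0.003, within a range of -0.377 to 1.53. Bnip3l, a mitophagy receptor, was at 414 ± 68.7 CPM in ASC and 421 ± 36.5 CPM in sham. Pla2g16, the phospholipase now named Plaat3 that takes part in fibre organelle breakdown, had 229 ± 80.0 and 152 ± 27.5 CPM (log2 fold change 0.59, SE 0.25, edgeR adjusted p = 0.335, and adjusted p = 0.0491 without ASC 2). Dnase2a, the widely expressed relative of Dnase2b, averaged 6.14 CPM in ASC and 6.33 CPM in sham, and Xiap, a relative of Birc7, 84.5 and 82.5 CPM. Both were chosen after their values were seen and do not stand for the rest of the list.

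Other heat shock factors and small heat shock genes did not follow Hspb1 in size. Of 7 tested, 0 passed in edgeR (3 had an unadjusted p below 0.05), 0 in DESeq2 and 0 in limma-voom. Their log2 fold changes had a median of 0.13 and reached 0.59. Hspb2 had 34.5 ± 2.78 CPM in ASC and 34.3 ± 4.98 CPM in sham, and Hsf1, the general heat shock factor, 27.0 ± 2.60 and 26.8 ± 1.92 CPM, differences whose sign turned under library totals alone. Of 8 gamma crystallins 2 passed in edgeR, Cryga (log2 fold change 3.65, SE 0.48, adjusted p = 0.0243) and Cryge (3.46, SE 0.46, adjusted p = 0.0254), and the list median was 2.14. An unadjusted p below 0.05 was reached by 6 of the 8, against 14.7% of all tested genes. DESeq2 called 5 and limma-voom 1, which was neither Cryga (adjusted p = 0.0624) nor Cryge (adjusted p = 0.0547). In edgeR the call of Cryga was lost without ASC 3, ASC 4 or any 1 sham library (adjusted p up to 0.0835), and that of Cryge without any 1 library but ASC 3 (up to 0.0883). Gamma crystallins have near-identical copies among which counts may be split. Of 8 alpha and beta crystallins 0 passed in edgeR (0 had an unadjusted p below 0.05), 0 in DESeq2 and 0 in limma-voom, and the median log2 fold change was 0.18. Cryaa had 152491 ± 33403 CPM in ASC and 143845 ± 27937 CPM in sham, again with a sign that turned under library totals alone, and Crybb2 51400 ± 9884 and 45868 ± 13163 CPM.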

How the data were processed

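RNA of mouse lens capsules was measured by sequencing of poly-A selected, randomly primed libraries, per the labels' protocols. The authors deposited 1 table of raw read counts per gene. The tools named are featureCounts (version 1.5.0-p3), HISAT2 (version 2.0.5), CASAVA and fastp, per the submitters' processing notes. No genome build, annotation or strand setting was given in the sources used here. P-values with 4 libraries per group measure the spread between these libraries, whose separate animals are not stated beyond the word biological.

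Symbols were matched for 54409 of the 54532 identifiers, and exon lengths came from GENCODE mouse release M21. The analysis used R 4.3.3 and edgeR 4.0.16. After filterByExpr 15857 genes were left, libraries were scaled by TMM, and ASC was tested against sham with the robust quasi-likelihood test and no covariate. Benjamini-Hochberg adjustment ran over all tested genes, with a threshold of 0.05. The SE is the log2 fold change divided by the square root of F. Log2 CPM used a prior count of 2, and ratios used CPM without one. Library totals were 14420494 to 21141582 counts, and reads carried no molecular identifiers. The fit was tested on simulated data.

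Alternatives were DESeq2 1.42.0, limma-voom (limma 3.58.1) with sample weights, 3 other scalings, crystallins left out, 2 other low-count filters, no robust estimation, a block for the replicate number, leaving out each library, and an adjusted p of 0.01. The members and lists were chosen with earlier results of these data known, and within-library ratios were added after the values were seen. The text names the 10 members, up to 3 called genes or else the 2 most abundant genes of each list, and the 5 genes most like each set. Other genes were picked with their values known, which the text states, or are named for a call or overlap. Lists have no set test.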

Additional observations from a re-analysis of the deposited data

How the results depend on the processing

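All 10 members kept a positive log2 fold change under each of 19 alternatives, with ranges of 1.17 to 1.80 for Bfsp1, 2.55 to 3.29 for Lgsn, 3.21 to 4.04 for Birc7, 2.505 to 3.59 for Dnase2b and 2.86 to 3.54 for Hspb1. The adjusted p of 0.01 and the fit without robust estimation leave the fold changes as they are, so these alternatives could not change a sign. Calls were less settled. Against 0 of 10 with all libraries in edgeR, 5 members passed in DESeq2, 1 in limma-voom, 3 without robust estimation (Lgsn, Birc7 and Hspb1) and 2 with the replicate number as a block (Bfsp1 and Hsf4). Leaving out 1 library gave 0 to 4 members, the 4 being without ASC 2. The count of all genes past the threshold was 162 with all libraries, 571 in DESeq2, 712 without a low-count filter, 44 at an adjusted p of 0.01, 56 to 228 with 1 library left out and 169 with the replicate block, under which Cryge had an adjusted p of 0.0865 in edgeR. Replicate numbers are not shown to pair the libraries. The sham library most like each ASC library was sham 4 for ASC 1 and sham 3 for ASC 2, ASC 3 and ASC 4. The numbers thus matched for ASC 3 only. Scaling by library totals alone gave all genes a median log2 fold change of -0.116, against 0.008 with TMM, and turned the sign of Mip (-0.0599), Hspb2 (-0.109), Hsf1 (-0.125) and Cryaa (-0.0396). Upper quartile scaling gave -0.00878 for Hspb2 and -0.0134 for Hsf1, no low-count filter -0.000208 for Hspb2 and -0.00593 for Hsf1, and limma-voom 0.00182 for Bnip3l. With 1 library left out, Mip ranged from -0.111 to 0.23, Bnip3l from -0.106 to 0.0711, Hspb2 from -0.0572 to 0.105, Hsf1 from -0.0422 to 0.0637 and Cryaa from -0.0338 to 0.19. These 5 genes lie near 0 and passed in no alternative. The cause of these differences was not tested. Of the 20 group and gene combinations checked for a library far from its group, 0 passed the 95% limit of Dixon's test, and groups of 4 limit what it can show.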
